A study of Mus musculus with 18 samples.

Results

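The 10 genes described here carry the lipopolysaccharide (LPS) signal of Toll-like receptor 4 (TLR4) from the cell surface to its first kinases. They were taken by name from a table of 21734 protein-coding genes, and they comprise the co-receptors Cd14 and Ly96, the adaptors Tirap, Myd88, Ticam2 and Ticam1, the kinases Irak4, Irak3 and Map3k7, and the ubiquitin ligase Traf3. All 10 passed the filter on low counts that left 11357 genes for testing. In this pathway CD14 hands LPS to the complex of TLR4 with MD-2, the product of Ly96. At the plasma membrane TIRAP then brings MyD88 to the receptor, MyD88 recruits IRAK4 and the other IRAK kinases, and TAK1, the product of Map3k7, passes the signal to NF-κB and MAP kinases. From endosomes the adaptors TRAM (Ticam2) and TRIF (Ticam1) act through TRAF3 on the kinases that induce type I interferon. IRAK3, also called IRAK-M, lacks the kinase activity of IRAK4 and restrains the MyD88 branch. The microRNA miR-146a is induced by NF-κB and represses Irak1 and Traf6, neighbours of the 10 genes in the same chain.

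RNA was sequenced from mouse BMDMs, macrophages that were derived from bone marrow over 8 to 9 days of culture with the growth factor M-CSF at 10 ng/ml. Marrow came from 3 mice of each genotype, aged 6 to 7 months and of 129/B6 mix, which were wild-type for miR-146 (WT), miR-146a knock-outs (KO) or homozygous for the 3′F allele, in which the 3′ part of the miR-146a duplex was swapped and the seed kept. Both alleles were made in embryonic stem cells and are carried by every cell of the animal. BMDMs of each genotype received fresh medium without LPS (resting) or with 1 ng/ml LPS, and were harvested 16 h later, which gives 6 groups of 3 libraries. The labels do not say which mouse a library came from, so p-values measure the spread between these cultures. The table lists protein-coding genes, and miR-146a itself was not analysed here.

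The 3 strands below show what separates the genotypes. The first is mature mouse miR-146a-5p from RefSeq at chr11:43374435-43374456 on the minus strand of GRCm38.p6, with its seed, bases 2 to 8, in capitals. The others are the 20-base guide strands of the study's synthetic WT and 3′F duplexes, with the 8 positions that differ, 13 to 20 counted from the 5′ end, in capitals. The seed is the same in all of them.
miR-146a-5p: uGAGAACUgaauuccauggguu
WT guide strand: ugagaacugaauUCCAUGGG
3′F guide strand: ugagaacugaauAAGUGUCC

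Matches to this seed were sought in the longest annotated 3′ UTR of each of the 10 genes. The 8mer searched was AGTTCTCA, a 7mer was either of its ends one base shorter, and the 6mer was its core GTTCTC. No 8mer was found in any of the 10. Tirap held 3 7mers in a UTR of 3360 bases, Ticam2 held 1 7mer in 3029 bases, Myd88 held 1 6mer in 987 bases, and the other 7 genes held none. A 7mer or 8mer thus occurred in 2 of the 10 genes and in 20.7% of the 11261 tested genes with an annotated 3′ UTR, and any match in 3 of the 10 and in 33.5%. The Tirap matches, written in the sense of the transcript with the matched bases in capitals, lie on the minus strand of GRCm38 at chr9:35186583-35186612, chr9:35186079-35186108 and chr9:35184777-35184806, 1318, 1822 and 3124 bases into the UTR. They are shown because Tirap is the member with the most seed matches.
Tirap site 1: gttgaactgtgaggaaccgGTTCTCAatct
Tirap site 2: tttgtttgtgtcggtcagcAGTTCTCcacc
Tirap site 3: ctttaatgccctgtgagccAGTTCTCccca

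Libraries held 4071084 to 19818043 counts. The 8 macrophage markers listed for the check, among them Lyz2, Adgre1, Csf1r and Cd68, all passed the filter and summed to 31300 to 86600 CPM (counts per 1000000 of library size scaled by the TMM method) in every library, whereas the T and NK cell, B cell, dendritic, stromal, erythroid and mast cell lists each summed to at most 5.21 CPM. Of 9 markers of neutrophils and their precursors 6 passed the filter, and that list summed to 13.7 to 67.6 CPM. A pair of resting libraries stood apart. Resting KO replicate 3 lay at 19.7 on the first principal component of log2 CPM, which held 61.8% of the variance, whereas resting KO replicates 1 and 2 lay at -28.2 and -31.4, and LPS libraries at 17.4 to 70.6. Resting 3′F replicate 3, with the lowest count, lay at 50.3 on the second component. Results of the 10 genes that rest on these libraries, and counts of pathway genes between genotypes at rest, are therefore also given without them.

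Cd14 was by far the most abundant of the 10 transcripts per length. In resting WT BMDMs it stood at 482 ± 94.8 CPM per kb (SD, n = 3), Myd88 at 23.0 ± 3.67, Map3k7 at 14.1 ± 0.684, Ly96 at 12.5 ± 0.667 and Irak3 at 9.46 ± 1.87 CPM per kb, with no overlap between the libraries of neighbours in this order. Irak4 at 6.30 ± 0.812, Traf3 at 5.37 ± 0.707 and Ticam1 at 4.50 ± 0.314 CPM per kb overlapped in turn, and Tirap had 3.45 ± 0.0954. TLR4 itself stood at 40.4 CPM per kb, between Cd14 and Myd88. After LPS the WT order began with Cd14 at 1050 ± 108, then Myd88 at 70.2 ± 13.6 and Irak3 at 60.9 ± 3.28 CPM per kb, which overlapped, so that Irak3 had moved ahead of Map3k7 and Ly96. The lengths given with the counts are below the exon bases of the Gencode M21 annotation for Ly96 (632 against 1021), Irak3 (3219 against 3676) and Myd88 (2027 against 2576). They are also below for Cd14, Map3k7, Irak4 and Traf3, and equal for Tirap and Ticam1, so the CPM per kb of the former genes depend on the length used. The order of Ly96 and Irak3 at rest, and thus the move of Irak3 ahead of Ly96, depends on the length used. Ticam2 is left out of this order: the table gives it a length of 422 bases against 5792 exon bases in the Gencode M21 annotation, of which 14.5% lie in exons of Tmed7 on the same strand. Its 9 to 47 reads per library, the fewest of the 10 genes, may cover only part of the gene, and its values are uncertain.

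**Figure D1:**
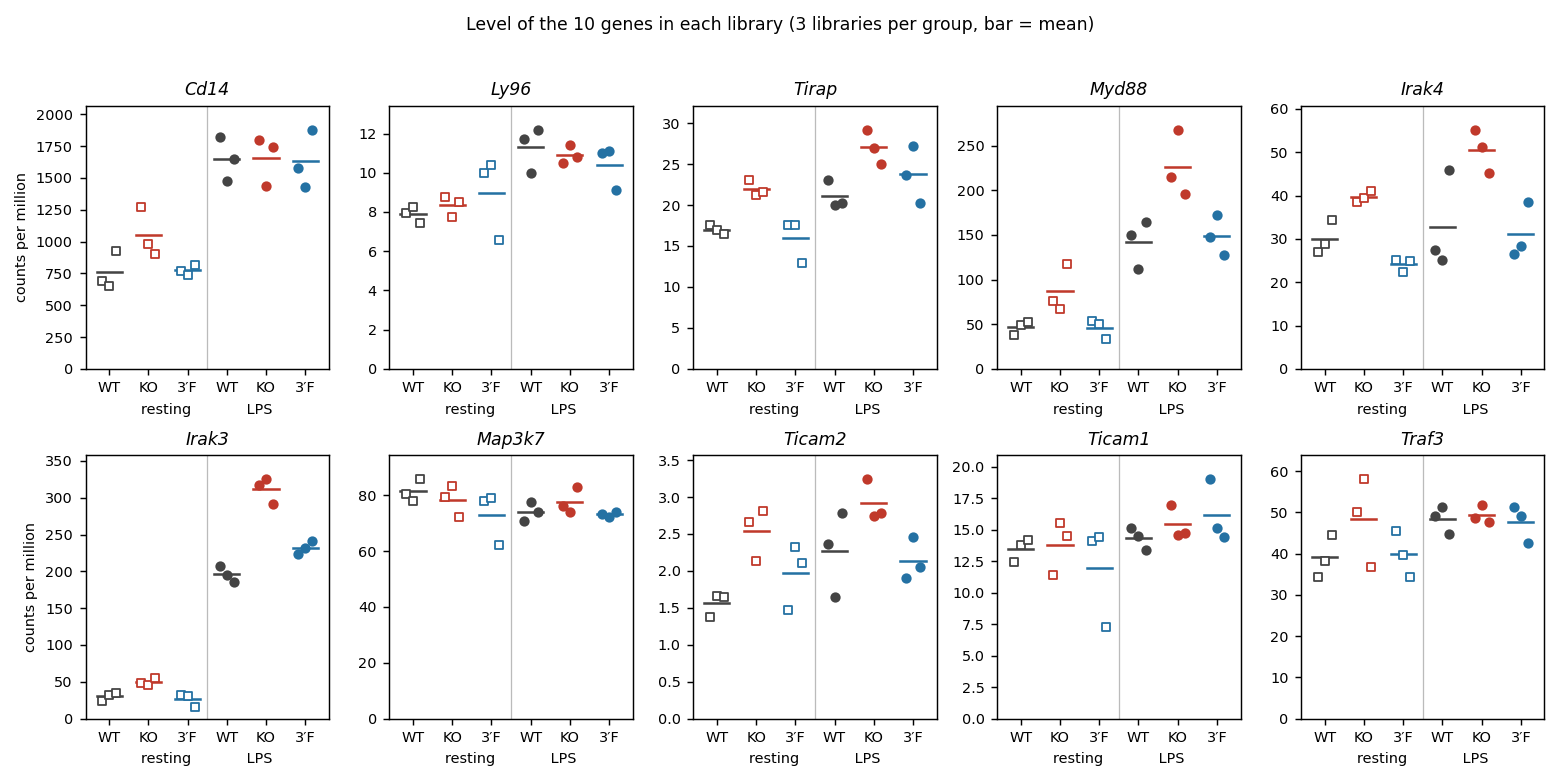
CPM of each of the 10 genes (vertical axes, each starting at 0) in the 18 libraries, by genotype, with resting cells as open squares and LPS-treated cells as filled circles. Bars mark the mean of 3 libraries. Irak3, Myd88 and Cd14 were higher in each LPS library than in every resting library of the same genotype, whereas Map3k7 stayed between 62.0 and 85.7 CPM in all 18.

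The first comparison asks how the genes respond to 16 h of LPS in each genotype. Irak3, Myd88 and Cd14 rose in WT, KO and 3′F BMDMs, Ly96 passed the test in WT and Tirap in 3′F, and no member fell. A gene was called at a Benjamini-Hochberg adjusted p under 0.05 in edgeR's quasi-likelihood test, adjusted over the 11357 genes. By that rule 4 of the 10 were called in WT, where 28.5% of all genes were called and 16.3% were called higher. In KO 3 were called (26.9% of all genes, 14.3% higher) and in 3′F 4 (31.2%, 17.2% higher). The median log2 fold change of the 10 genes was 0.41 in WT, 0.33 in KO and 0.37 in 3′F, and that of all genes 0.02, 0.02 and -0.01. The same 3 genes were called in KO without resting KO replicate 3 (Cd14 0.56, Myd88 1.66 and Irak3 2.73 on the log2 scale) and the same 4 in 3′F without resting 3′F replicate 3 (Cd14 1.08, Myd88 1.48, Irak3 2.83 and Tirap 0.40). Over all genes 35.2% were called in that KO fit (20.2% higher) and 27.6% in that 3′F fit (14.5% higher). The macrophage list summed higher with LPS in KO without overlap, to 69500 to 86600 CPM against 59600 to 61700 CPM at rest. In WT and 3′F its resting and LPS sums overlapped. Of its 8 markers 4 were called higher after LPS in WT, 2 in KO and 4 in 3′F, and 0 lower. Marker lists of other cell types also had higher sums in some LPS groups, with no overlap between resting and LPS libraries for the neutrophil list in WT and for the stromal list in KO and 3′F. The neutrophil list summed to 15.1 to 23.4 CPM in resting WT and 33.3 to 40.8 CPM in WT with LPS, to 15.7 to 53.3 and 38.8 to 67.6 CPM in KO, and to 13.7 to 66.7 and 28.4 to 33.5 CPM in 3′F. The stromal list, of whose 6 markers 2 passed the filter, summed to 0.394 to 3.38 and 2.65 to 4.4 CPM in WT, to 0.765 to 1.57 and 4.28 to 5.21 CPM in KO, and to 1.07 to 2.34 and 2.95 to 4.27 CPM in 3′F. The part of these lists in the responses of the 10 genes was not tested.

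Among the co-receptors, Cd14, the membrane-anchored LPS carrier, had 691, 654 and 929 CPM in resting WT and 1820, 1480 and 1650 CPM in WT with LPS. In KO it had 1270, 981 and 901 CPM at rest and 1800, 1440 and 1740 CPM with LPS. In 3′F it had 766, 739 and 818 CPM at rest and 1580, 1430 and 1880 CPM with LPS. The LPS libraries lay above the resting ones in each genotype, and the LPS libraries of all genotypes overlapped. The rise was 2.18-fold in WT (log2 fold change 1.12 ± 0.16 SE, adjusted p = 0.000114 by edgeR), 1.58-fold in KO (0.66 ± 0.16, adjusted p = 0.00633) and 2.11-fold in 3′F (1.07 ± 0.16, adjusted p = 0.000151). Ly96, which encodes the LPS-binding MD-2 subunit, had 7.95, 8.28 and 7.45 CPM in resting WT and 11.7, 10.0 and 12.2 CPM after LPS, without overlap. It rose by 0.52 ± 0.15 on the log2 scale (adjusted p = 0.0169), a call that was lost without resting WT replicate 3 (adjusted p = 0.0615), WT LPS replicate 1 (0.0569) or WT LPS replicate 3 (0.0717). Ly96 values in KO were 8.78, 7.72 and 8.53 CPM at rest and 10.5, 11.4 and 10.8 CPM with LPS (0.39 ± 0.15, adjusted p = 0.0676). In 3′F, where they overlapped, they were 9.99, 10.4 and 6.56 CPM at rest and 11, 11.1 and 9.11 CPM with LPS (0.18 ± 0.15, adjusted p = 0.395), and the interaction of 3′F with LPS was -0.34 ± 0.21 (adjusted p = 0.975).

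Of the MyD88-branch adaptors, Myd88 responded most. It had 38.3, 49.4 and 52.4 CPM in resting WT and 150, 112 and 165 CPM with LPS. In KO it had 75.8, 67.5 and 118 CPM at rest and 215, 268 and 196 CPM with LPS, and in 3′F 53.9, 50.6 and 33.2 CPM at rest and 148, 172 and 128 CPM with LPS. No resting library reached an LPS library of its genotype, although resting KO replicate 3, at 118 CPM, lay above the lowest WT library with LPS. Myd88 rose 3.05-fold in WT (1.61 ± 0.23 on the log2 scale, adjusted p = 9.12e-05), 2.60-fold in KO (1.38 ± 0.23, adjusted p = 0.000276) and 3.23-fold in 3′F (1.69 ± 0.23, adjusted p = 5.42e-05). Tirap, the adaptor that bridges TLR4 to MyD88, moved less. It had 17.5, 16.9 and 16.5 CPM in resting WT and 23.1, 20 and 20.2 CPM with LPS (0.31 ± 0.13, adjusted p = 0.0826), and in KO 23.1, 21.2 and 21.6 CPM at rest and 29.2, 27 and 25 CPM with LPS (0.30 ± 0.13, adjusted p = 0.0915). In 3′F it had 17.6, 17.5 and 12.9 CPM at rest and 23.7, 27.2 and 20.3 CPM with LPS and rose by 0.55 ± 0.13 on the log2 scale (adjusted p = 0.00466). The libraries did not overlap in any genotype, and the response of Tirap in 3′F was not shown to differ from that in WT (interaction 0.24 ± 0.18, adjusted p = 0.975).

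Irak3 had the strongest response of the 10 genes. In WT it had 23.7, 32.3 and 35.3 CPM at rest and 207, 195 and 186 CPM with LPS. In KO it had 48.2, 45.7 and 55.6 CPM at rest and 318, 325 and 292 CPM with LPS, and in 3′F 32.2, 31.2 and 15.9 CPM at rest and 223, 232 and 241 CPM with LPS. Every LPS library stood far above every resting library of any genotype, and the KO libraries lay above those of WT and 3′F in both states. Irak3 rose 6.45-fold in WT (log2 fold change 2.69 ± 0.20, adjusted p = 1.31e-07), 6.27-fold in KO (2.65 ± 0.20, adjusted p = 1.26e-07) and 8.57-fold in 3′F (3.10 ± 0.20, adjusted p = 3.44e-08). Irak4, the kinase that starts the IRAK cascade, was not called in any genotype. Its WT values were 26.9, 28.7 and 34.3 CPM at rest and 27.4, 25.1 and 45.8 CPM with LPS, where replicate 3 stood apart. Its KO values were 38.4, 39.4 and 41.1 CPM at rest and 55.2, 51.1 and 45.3 CPM with LPS (0.35 ± 0.19 on the log2 scale, adjusted p = 0.187), and its 3′F values 25.2, 22.4 and 24.8 CPM at rest and 26.5, 28.3 and 38.5 CPM with LPS (0.36 ± 0.20, adjusted p = 0.17). Of its relatives, Irak2, a kinase that acts beside Irak1, rose in WT (0.85 ± 0.19, adjusted p = 0.00376), KO (0.75 ± 0.19, adjusted p = 0.00815) and 3′F (0.99 ± 0.20, adjusted p = 0.0012), and Irak1 had log2 fold changes of -0.16, -0.24 and 0.06, none called.

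Map3k7, the kinase TAK1, was the steadiest of the 10 genes. It had 80.5, 77.9 and 85.7 CPM in resting WT and 70.7, 77.7 and 74.0 CPM with LPS, 79.4, 83.3 and 72.1 CPM in resting KO and 76.2, 73.9 and 83.0 CPM with LPS, and 78.0, 79.0 and 62.0 CPM in resting 3′F and 73.2, 72.2 and 74.0 CPM with LPS. The 95% intervals of its LPS response on the log2 scale ran from -0.34 to 0.07 in WT, from -0.22 to 0.20 in KO and from -0.21 to 0.21 in 3′F. A smaller change of Map3k7 was not detectable with these libraries.

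The TRIF branch had no member called in response to LPS. Ticam1, which encodes TRIF, had 12.4, 13.8 and 14.2 CPM in resting WT and 15.1, 14.5 and 13.4 CPM with LPS, 11.4, 15.5 and 14.5 CPM in resting KO and 17.0, 14.6 and 14.7 CPM with LPS, and 14.1, 14.4 and 7.26 CPM in resting 3′F and 19.0, 15.1 and 14.4 CPM with LPS. Resting and LPS libraries overlapped in WT and KO and met at 14.4 CPM in 3′F, and the log2 fold changes were 0.09 ± 0.19, 0.17 ± 0.19 and 0.39 ± 0.19. Traf3, the ligase downstream of TRIF, had 34.4, 38.2 and 44.6 CPM in resting WT and 49.1, 51.4 and 44.7 CPM with LPS (0.31 ± 0.15, adjusted p = 0.136). In KO it had 50.1, 58.0 and 36.7 CPM at rest and 48.6, 51.8 and 47.6 CPM with LPS, and in 3′F 45.5, 39.7 and 34.4 CPM at rest and 51.4, 49.0 and 42.6 CPM with LPS. Here resting KO replicate 3 was the lowest of its group, whereas for Myd88 and Irak3 it was the highest. Ticam2, which encodes TRAM and rests on few reads, had 1.38, 1.66 and 1.64 CPM in resting WT and 2.37, 1.64 and 2.79 CPM with LPS (0.54 ± 0.25, adjusted p = 0.129), and 2.66, 2.14 and 2.81 CPM in resting KO and 3.24, 2.75 and 2.78 CPM with LPS. In 3′F it had 1.47, 2.32 and 2.11 CPM at rest and 1.91, 2.46 and 2.05 CPM with LPS, and its states overlapped in all genotypes.

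**Figure D2:**
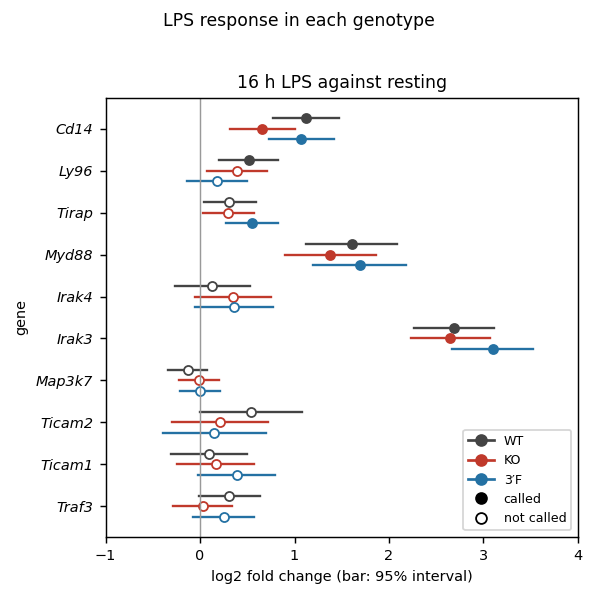
Log2 fold change of each gene (rows) after 16 h of LPS against resting cells in WT, KO and 3′F BMDMs, with 95% intervals as bars and genes called at an adjusted p under 0.05 as filled points. Irak3, at 2.65 to 3.10, and Myd88, at 1.38 to 1.69, lie far to the right in all genotypes, and the intervals of Map3k7, Ticam1, Irak4 and Traf3 include 0 in each.

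The next comparisons set cells without miR-146a beside WT cells. At rest Myd88 and Irak3 were higher in KO than in WT, and with LPS Irak3 was. At rest 2 of the 10 genes were called, beside 9.4% of all genes (5.12% called higher). With LPS 1 was called, beside 4.79% of all genes (1.89% called higher). The median log2 fold change of the 10 genes was 0.39 at rest and 0.23 with LPS, against 0.02 and 0.01 over all genes. In each state 9 of the 10 had a positive value, some near 0, as Ticam1 at rest (0.03) and Cd14 (0.01) and Traf3 (0.03) with LPS. KO libraries did not overlap with WT libraries for 5 of the 10 genes at rest and for 3 with LPS, beside 26.8% and 33.0% of all genes. The WT and KO libraries of these comparisons also gave the LPS responses above, and thus the same libraries enter both.

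At rest, Myd88 stood at 87.0 ± 26.8 CPM in KO and 46.7 ± 7.43 CPM in WT (SD, n = 3 each), a 1.86-fold difference (log2 0.90 ± 0.23 SE, adjusted p = 0.0208 by edgeR). Irak3 stood at 1.64 times its WT level (0.71 ± 0.19, adjusted p = 0.0282). Both differences were smaller without resting KO replicate 3 and no longer passed the test (Myd88 0.62, adjusted p = 0.0887, and Irak3 0.63, adjusted p = 0.072), and both calls were also lost without resting WT replicate 1 (adjusted p = 0.0967 and 0.131) or 2 (0.0638 and 0.0726). Over all genes 7.03% were called without resting KO replicate 3, against 9.4% with all libraries. With resting KO replicate 3 and resting 3′F replicate 3 both left out of the fit, 5 of the 10 genes were called in KO against WT. The share of all genes called rose as well, to 14.6% (8.1% called higher). The 5 genes were Myd88 and Irak3, and with them Cd14 (0.59, adjusted p = 0.028), Tirap (0.41, adjusted p = 0.0319) and Traf3 (0.49, adjusted p = 0.0134). With all libraries Cd14 had 0.47 ± 0.16 (adjusted p = 0.0827), Tirap 0.37 ± 0.13 (adjusted p = 0.0888) and Traf3 0.31 ± 0.15 (adjusted p = 0.225). Tirap had KO libraries at 21.2 to 23.1 CPM and WT libraries at 16.5 to 17.5 CPM. KO libraries also lay above WT for Ticam2, which rests on few reads (0.70 ± 0.26, adjusted p = 0.102), and Irak4 (0.40 ± 0.19, adjusted p = 0.214). Among these genes Tirap held 3 7mers, Ticam2 1 7mer and Myd88 1 6mer, and Irak3, Irak4, Cd14 and Traf3 held no seed match. Ly96, Ticam1 and Map3k7, also without a match, had 0.08, 0.03 and -0.06. The part of seed matches in the differences was not tested.

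Marker sums differed between genotypes as well. The macrophage list summed to 59600 to 61700 CPM in resting KO and 31300 to 47200 CPM in resting WT, and to 69500 to 86600 CPM in KO and 44200 to 58400 CPM in WT with LPS. Most of this sum was Lyz2, which ran from 26500 to 75200 CPM over the libraries and was not called in KO against WT (0.62 ± 0.21 at rest, adjusted p = 0.0734, and 0.57 ± 0.21 with LPS, adjusted p = 0.132). Of the 8 macrophage markers 2 were called higher at rest, Csf1r (0.81 ± 0.18, adjusted p = 0.0122) and Fcgr1 (1.79 ± 0.49, adjusted p = 0.0321), and Itgam was called lower at rest (-0.71, adjusted p = 0.0082) and with LPS (-0.59, adjusted p = 0.0315). The neutrophil list summed to 15.7 to 53.3 CPM in resting KO and 15.1 to 23.4 CPM in resting WT. S100a8 accounted for most of it in resting KO replicate 3, at 48.3 CPM. Of the 9 markers of this list, Ly6g and Elane were at 0 in all resting KO libraries, and the others had reads in some of them. Ly6g was also at 0 in all resting WT and resting 3′F libraries. The part of either list in the differences of the 10 genes was not tested. In bulk RNA a larger share of cells of a type cannot be told apart from more RNA per cell.

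With LPS, Irak3 was again higher in KO, with 318, 325 and 292 CPM against 207, 195 and 186 CPM in WT. No KO library came near a WT library. The difference of 1.59-fold (log2 0.67 ± 0.19) passed the test narrowly (adjusted p = 0.0495), and the call was lost without any single one of the 6 libraries compared, with adjusted p between 0.0816 and 0.194 and log2 fold changes from 0.63 to 0.72. Myd88 had the same estimate with a wider spread (0.67 ± 0.22, adjusted p = 0.0979), and its lowest KO library, at 196 CPM, lay above its highest WT library, at 165 CPM. Irak4 was at 55.2, 51.1 and 45.3 CPM in KO and 27.4, 25.1 and 45.8 CPM in WT (0.62 ± 0.19, adjusted p = 0.0687), so that WT LPS replicate 3 alone overlapped with KO. Without that library the Irak4 difference was 0.94 (adjusted p = 0.00496). Cd14, Ly96 and Traf3 had estimates of 0.01, -0.05 and 0.03, with 95% intervals of -0.33 to 0.35, -0.36 to 0.26 and -0.29 to 0.34.

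Whether the LPS response itself differs between KO and WT was tested as an interaction. None of the 10 genes was called (smallest adjusted p = 1 by edgeR, and 0 genes at an unadjusted p under 0.05), beside 0.00881% of all genes, which is 1 gene, and DESeq2 and limma-voom called 0 of the 10 as well. Cd14 had the largest estimate, -0.46 ± 0.23 on the log2 scale with a 95% interval from -0.95 to 0.02, which sets its 1.58-fold rise in KO beside the 2.18-fold rise in WT. For Irak3 the interval was -0.60 to 0.52 and for Myd88 -0.90 to 0.44. Without resting KO replicate 3 none was called either, beside 0.0348% of all genes, with -0.56 for Cd14 (adjusted p = 0.813), 0.04 for Irak3 and 0.05 for Myd88.

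The 3′F comparisons ask whether a miR-146a with its seed but without its own 3′ sequence leaves the 10 genes as in WT. No member was called in 3′F against WT at rest, where the share of all genes called was 0%, or with LPS, where it was 0.00881% (1 gene). At an unadjusted p under 0.05 none of the 10 passed in either state, beside 557 and 106 of all genes, and DESeq2 and limma-voom with quality weights called 0 of the 10 in each. Without resting 3′F replicate 3 none was called at rest either, beside 0.00875% of all genes. The largest estimates at rest were 0.32 ± 0.26 for Ticam2 and -0.31 ± 0.19 for Irak4, and with LPS 0.25 ± 0.19 for Irak3 and 0.17 for Tirap and Ticam1. The 3′F libraries did not overlap with WT for 1 of the 10 genes in each state, beside 7.12% and 7.87% of all genes. At rest this was Irak4, lower in 3′F, and with LPS Irak3, higher in 3′F. The lack of calls does not show equality, and the intervals say how large a difference could be. For Myd88 the 95% interval of 3′F against WT was -0.49 to 0.47 at rest and -0.40 to 0.54 with LPS, and for Irak3 -0.58 to 0.24 and -0.15 to 0.64, while the KO to WT estimates were 0.90 and 0.67 for Myd88 and 0.71 and 0.67 for Irak3. For Map3k7 the intervals were -0.36 to 0.06 and -0.23 to 0.19. The 3′F and KO comparisons with WT share the WT libraries. In the interaction of 3′F with LPS no member was called either (smallest adjusted p = 0.975, 0 of the 10 at an unadjusted p under 0.05, 0 by DESeq2 and limma-voom), beside 0% of all genes, and its largest estimate was 0.41 ± 0.27 for Irak3, or 0.18 without resting 3′F replicate 3.

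The direct comparison of KO with 3′F gave 4 called members at rest, all higher in KO, beside 12.9% of all genes (6.79% higher), and 1 with LPS, beside 3.88% (1.51% higher). At rest these were Irak3 (0.88 ± 0.19, adjusted p = 0.0103), Myd88 (0.90 ± 0.23, adjusted p = 0.0191), Irak4 (0.72 ± 0.19, adjusted p = 0.0262) and Tirap (0.43 ± 0.13, adjusted p = 0.041). Irak4 had 38.4 to 41.1 CPM in KO and 22.4 to 25.2 CPM in 3′F, and the libraries of the other called genes did not overlap either. Without resting 3′F replicate 3, the library with the fewest counts, Irak3 was the gene still called and Myd88 had 0.73 (adjusted p = 0.0637), Irak4 0.74 (0.058) and Tirap 0.33 (0.103). Without resting KO replicate 3, Myd88 had 0.62 (adjusted p = 0.0741), Irak4 0.69 (0.0586) and Tirap 0.44 (0.0677), and without both libraries Myd88 had 0.48 (0.148). The share of all genes called fell as well, from 12.9% to 6.43% without resting 3′F replicate 3. It was 7.99% without resting KO replicate 3 and 6.56% without both. Tirap was also lost without resting KO replicate 1 or 2 (0.107 and 0.0607), with upper-quartile scaling (0.0683) and without a filter (0.0756), and Irak4 without resting 3′F replicate 2 (0.0662). In the resting 3′F libraries the neutrophil list ran from 13.7 to 66.7 CPM and the dendritic cell list from 0.869 to 4.45 CPM, the highest in replicate 3 for the latter, and their part was not tested. With LPS, Irak4 was higher in KO, at 45.3 to 55.2 CPM against 26.5 to 38.5 CPM in 3′F (0.71 ± 0.19, adjusted p = 0.0489), and the call was lost without KO LPS replicate 1 (0.163), 2 (0.156) or 3 (0.0691) or 3′F LPS replicate 1 (0.207) or 2 (0.143).

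**Figure D3:**
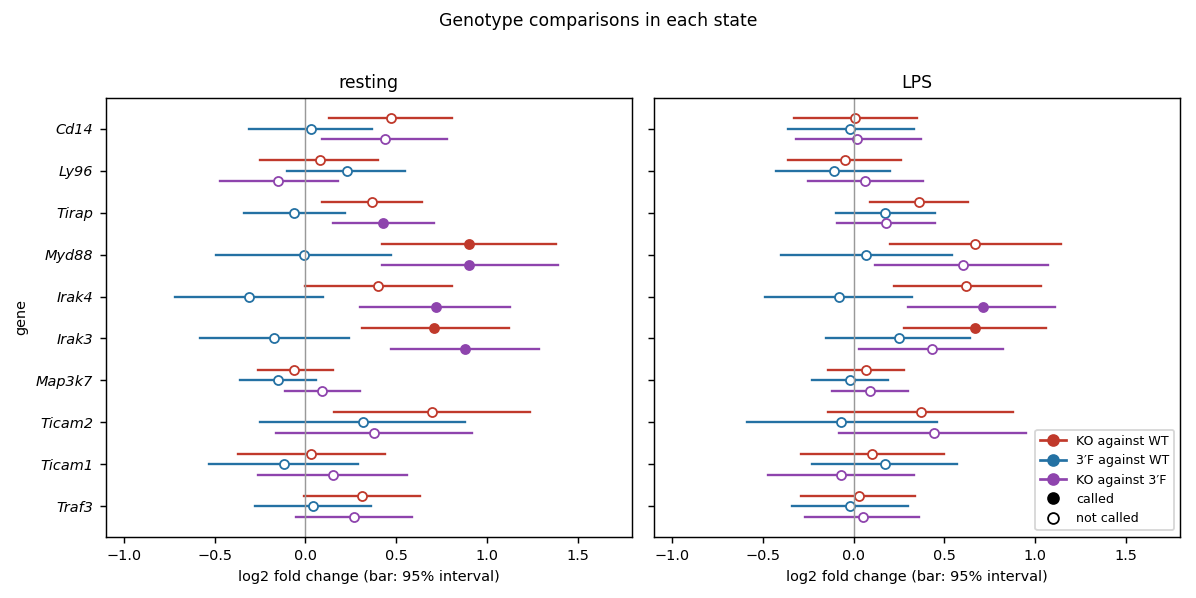
Log2 fold change of each gene (rows) between genotypes in resting (left) and LPS-treated (right) BMDMs, with 95% intervals as bars and called genes as filled points. The KO comparisons of Myd88, Irak3, Irak4 and Tirap have positive estimates in both states, with values between 0.18 and 0.90, and the 3′F against WT intervals include 0 for all 10 genes.

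Promoters give a feature of the members that the counts do not. RefSeq windows of 300 bases, from 250 before to 50 after a start site, were held for 7 of the 10 genes with 9 start sites. They were searched on both strands for the letters GGNNTTTCC (κB, bound by NF-κB), TGANTCA (AP-1) and GAAANNGAA (interferon response). Among all 32851 promoters 5.82% held the κB letters, 7.81% the AP-1 letters and 8.56% the interferon response letters. Myd88 held 1 κB and 1 interferon response match, Traf3 held 2 κB matches, Map3k7 held 1 κB match, and the second Irak3 start site held 1 interferon response match. The windows of Tirap, Ticam1 and Irak4 held none of the 3 motifs, and none of the 9 windows held the AP-1 letters. The promoters printed here are those of Myd88 and Irak3, the genes that rose most with LPS, and of Traf3, which was not called, with matches in capitals and none overlapping. They are read 5′ to 3′ along the gene on GRCm38.p6, at chr9:119339969-119340268 (minus strand), chr10:120201548-120201847 and chr10:120202081-120202380 (minus strand), and chr12:111166120-111166419 (plus strand).
Myd88: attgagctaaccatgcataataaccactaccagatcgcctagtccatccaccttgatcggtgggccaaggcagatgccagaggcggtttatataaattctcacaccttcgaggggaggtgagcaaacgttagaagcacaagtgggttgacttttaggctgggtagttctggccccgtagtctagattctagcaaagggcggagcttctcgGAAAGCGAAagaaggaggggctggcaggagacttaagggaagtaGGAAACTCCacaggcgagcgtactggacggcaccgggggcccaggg
Irak3, first start site: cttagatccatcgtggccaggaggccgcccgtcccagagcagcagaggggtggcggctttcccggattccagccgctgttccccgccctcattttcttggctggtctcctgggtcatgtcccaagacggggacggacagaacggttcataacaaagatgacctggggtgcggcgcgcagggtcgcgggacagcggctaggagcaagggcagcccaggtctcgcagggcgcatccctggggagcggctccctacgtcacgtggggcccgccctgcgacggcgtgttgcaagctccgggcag
Irak3, second start site: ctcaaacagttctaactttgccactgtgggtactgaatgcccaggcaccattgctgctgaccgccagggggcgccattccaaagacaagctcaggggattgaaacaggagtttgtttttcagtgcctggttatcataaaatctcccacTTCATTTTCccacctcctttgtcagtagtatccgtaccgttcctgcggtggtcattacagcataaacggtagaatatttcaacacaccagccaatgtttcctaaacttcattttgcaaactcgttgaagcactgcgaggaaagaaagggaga
Traf3: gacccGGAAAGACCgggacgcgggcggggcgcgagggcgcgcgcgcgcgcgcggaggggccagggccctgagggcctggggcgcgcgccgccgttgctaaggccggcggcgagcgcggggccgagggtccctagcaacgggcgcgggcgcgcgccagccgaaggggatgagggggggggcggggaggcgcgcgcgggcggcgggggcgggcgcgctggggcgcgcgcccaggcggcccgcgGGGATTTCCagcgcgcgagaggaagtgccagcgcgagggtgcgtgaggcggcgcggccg

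Likeness of pattern was described by Pearson's r of log2 CPM over the 18 libraries, which share their depth and states. Among the 10 genes, Myd88 and Irak3 had r = 0.96, Cd14 and Irak3 0.92, and Tirap and Myd88 0.89, whereas Map3k7 had between -0.24 and 0.45 with the others. Among 10260 other tested genes with an average log2 CPM of at least 1, those most like Irak3 were Abcc5 and Lmo4 (r = 0.994 each), and those most like Myd88 were Sav1 and Rapgef2 (0.992 each). For Cd14 they were Cxcl16 (0.959) and Mmp14 (0.954), and for Tirap Tmem127 (0.968) and Msl1 (0.959). The closest gene to Irak4 was Spats2 (0.896), to Ticam1 Zfp64 (0.948), to Ly96 Zc3h12d (0.898), to Map3k7 E130308A19Rik (0.886), to Ticam2 Ccl24 (0.87) and to Traf3 Tlr2 (0.861).

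To place the 10 genes in their pathway, 45 further genes in 4 lists were counted in the same tests, of which 43 were tested. After LPS 14 rose and 2 fell in WT, 15 rose and 2 fell in KO, and 13 rose and 4 fell in 3′F, while 16.3%, 14.3% and 17.2% of all genes rose and 12.3%, 12.6% and 14% fell. The TRIF-branch list had 5 of 10 genes higher in each genotype. Among them were Ikbke, a kinase related to TBK1 (1.79 ± 0.17 in WT, adjusted p = 1.43e-06), Traf2 (1.42 ± 0.12, adjusted p = 6.13e-07) and Tank, a scaffold of these kinases (1.09 ± 0.13, adjusted p = 1.21e-05). In the list of the IRAK-TRAF6-TAK1 and IKK complex, 5 of 14 rose and 1 fell in WT, with Peli3, an IRAK-binding ubiquitin ligase, at 1.54 ± 0.24 (adjusted p = 0.000164), Map3k8 at 1.33 ± 0.17 (adjusted p = 2.71e-05) and Peli2 at -1.43 ± 0.34 (adjusted p = 0.00472). Of 9 inhibitors 2 rose and 1 fell in WT, among them Trafd1 (2 ± 0.36, adjusted p = 0.000704) and Pik3ap1 (1.27 ± 0.31, adjusted p = 0.0063), and of 10 genes for the receptor and LPS delivery Itgam and Rab11a rose (0.43 ± 0.15, adjusted p = 0.0378, and 0.29 ± 0.10, adjusted p = 0.039). Tlr4 had -0.10 ± 0.12 (adjusted p = 0.581).

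In KO against WT at rest 9 of the 43 genes were higher and 2 lower, beside 5.12% and 4.27% of all genes. Trafd1 (1.47 ± 0.36, adjusted p = 0.0171), Ikbke (0.93 ± 0.16, adjusted p = 0.0033), Ly86, the partner of the LPS-receptor relative CD180 (0.85 ± 0.23, adjusted p = 0.0314), and Irak2 (0.80 ± 0.19, adjusted p = 0.0171) were among the higher ones, and Itgam, the αM integrin CD11b, was lower (-0.71 ± 0.15, adjusted p = 0.0082). Trafd1 ran from 136 to 459 CPM in resting KO. Without resting KO replicate 3, a setting added for these lists after the data were seen, 4 genes were higher and 3 lower, beside 3.61% and 3.42% of all genes. Trafd1 then had 0.66 ± 0.21 (adjusted p = 0.0697) and Ly86 0.66 ± 0.24 (adjusted p = 0.114), which were no longer called, while Ikbke (0.75 ± 0.16, adjusted p = 0.00998), Irak2 (0.75 ± 0.21, adjusted p = 0.0447) and Itgam (-0.61 ± 0.16, adjusted p = 0.0279) were. Without both libraries 10 genes were higher and 4 lower, beside 8.1% and 6.53% of all genes, and Trafd1 was called at 0.69 ± 0.21 (adjusted p = 0.0368). With LPS, where 2 of the 43 were higher and 2 lower beside 1.89% and 2.9% of all genes, Irak2 (0.70 ± 0.19, adjusted p = 0.0487) and Tank (0.53 ± 0.12, adjusted p = 0.024) were higher and Itgam (-0.59 ± 0.15, adjusted p = 0.0315) was among the 2 lower. The other lower gene in both states was Il1rl1, the IL-33 receptor ST2, with -1.31 ± 0.37 at rest (adjusted p = 0.0371) and -1.96 ± 0.46 with LPS (adjusted p = 0.0238). It lies below the expression limit for naming and was named after its values were seen. Irak1 and Traf6, the known targets of miR-146a, had 0.22 ± 0.18 and 0.26 ± 0.16 at rest and 0.14 ± 0.18 and 0.31 ± 0.16 with LPS, and neither was called (adjusted p from 0.332 to 0.766). Of the 43 genes 10 were called in KO against 3′F at rest (8 higher, 2 lower, beside 6.79% and 6.1% of all genes) and 2 with LPS (1 higher, 1 lower, beside 1.51% and 2.37%). At rest 7 were called without resting KO replicate 3 (7 higher, beside 4.4% of all genes). Without resting 3′F replicate 3, 8 were called (6 higher, 2 lower, beside 3.68% and 2.75%). Without both, 7 were called (4 higher, 3 lower, beside 4.02% and 2.54%). None was called in 3′F against WT in either state or in an interaction.

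**Figure D4:**
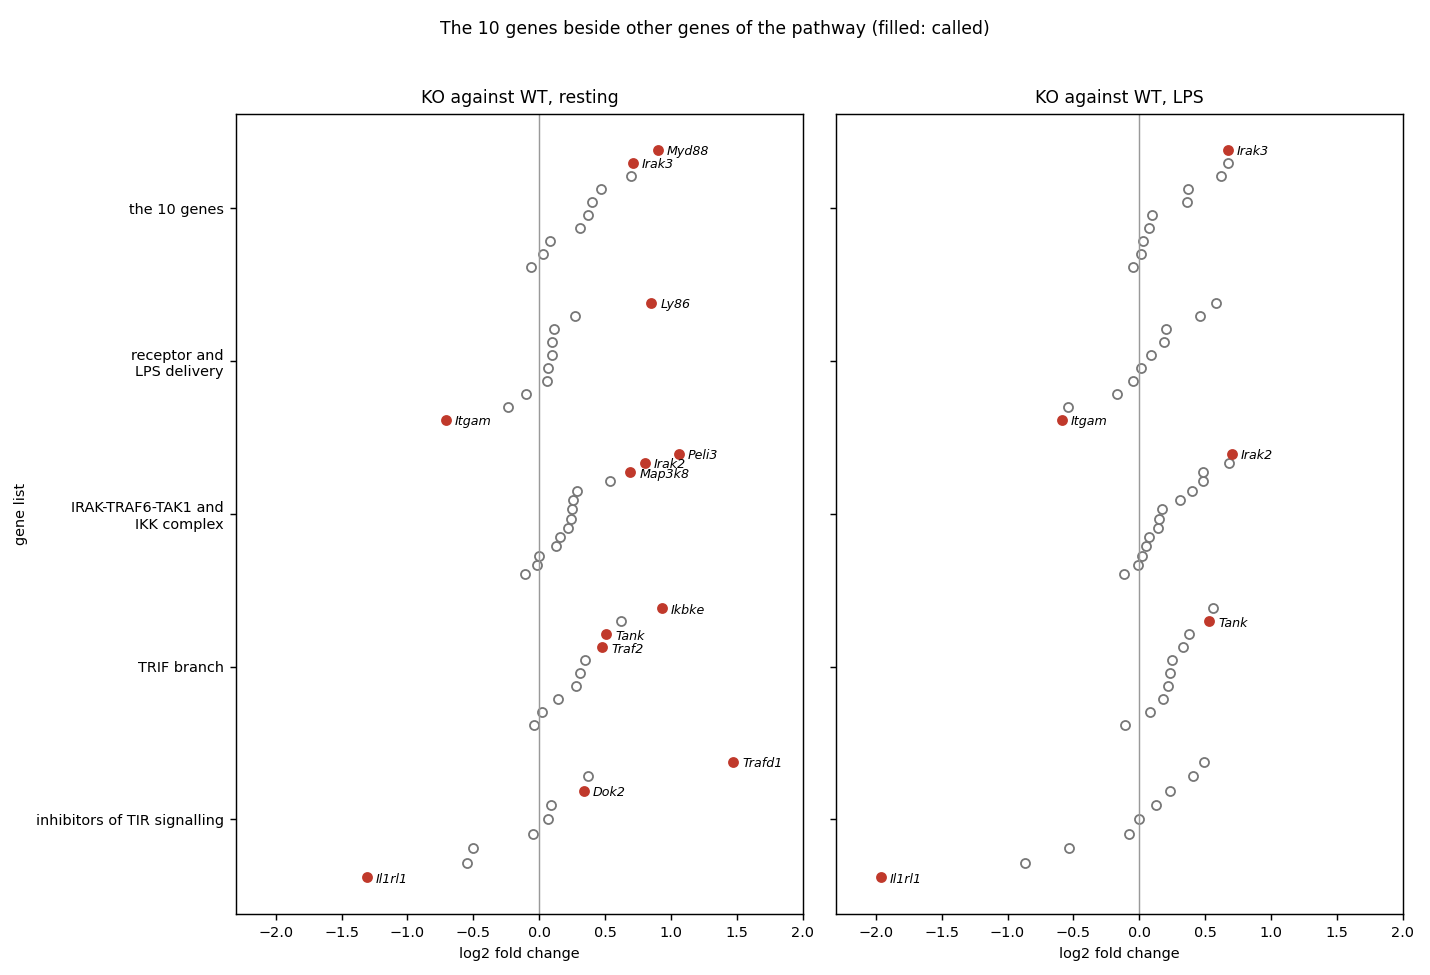
Log2 fold change of KO against WT at rest (left) and with LPS (right) for the 10 genes and for the tested genes of 4 further lists of the pathway, 1 point per gene, with called genes filled and named. At rest, with all libraries, Myd88 and Irak3 sit beside Ikbke, Irak2, Peli3 and Trafd1 among the called genes on the right, and Itgam and Il1rl1 sit on the left in both states.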

How the data were processed

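The authors trimmed reads of ribosomal RNA-depleted, directional libraries with cutadapt 1.8.3, aligned them with HISAT2 2.1.0 to mm10 and counted them on the reverse strand per Gencode M15 gene with featureCounts 1.5.3 at a mapping quality of at least 50, and the deposited values are raw counts of 21734 protein-coding genes in 18 libraries. The reads were stranded, so that overlapping genes on the other strand do not share counts. The deposited gene length served for CPM per kb, and the authors' other files were not used. Here genes were filtered with filterByExpr, scaled by TMM and tested in 1 quasi-likelihood fit of edgeR 4.0.16 over all libraries, in 11 two-sided comparisons with Benjamini-Hochberg adjustment over all 11357 genes. SE is the absolute log2 fold change divided by the square root of F. Total counts of 4071084 to 19818043 per library set the precision. Alternatives used DESeq2 1.42.0, limma 3.58.1 (voom with quality weights), other scaling, no filter, a replicate block, the compared groups alone and omitted libraries. The fit was tested on simulated data. Replicates of a group differed by more than sampling noise. UTRs, positions and shared exons came from Gencode M21 of the same build, and miRNA and promoter sequences from RefSeq on GRCm38.p6. The members, lists, motifs and naming rule (all members, and up to 3 called genes per list and comparison with the largest change, expressed at log2 CPM 1 or more on average and without overlapping libraries) were chosen with earlier results of these data known. Itgam has 2 entries in the table, and the one with more counts was used.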

Additional observations from a re-analysis of the deposited data

How the results depend on the processing

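The LPS responses of Irak3, Myd88 and Cd14 were called under every alternative run in each genotype. Of 1620 values of the 10 genes under alternatives, 1542 stayed on the same side of the threshold, 29 crossed into a call and 49 lost one. None changed sign with a call, while 111 of the 1542, uncalled in both fits, did change sign. Counts of called members moved as follows. In KO against WT with LPS, from 1, they were 3 with DESeq2, 0 with DESeq-type (RLE) scaling, 0 with upper-quartile scaling, 0 without a filter, 4 with limma-voom and 2 with the compared groups alone. In KO against 3′F with LPS, from 1, they were 0 with RLE, 0 with upper-quartile scaling, 3 with limma-voom and 3 with the groups alone. In KO against WT at rest, from 2, they were 5 with limma-voom, 0 with the groups alone and 5 without both resting replicates 3 of KO and 3′F. In KO against 3′F at rest, from 4, they were 7, 0 and 1. Without both replicates 3, 14.6% of all genes were called in KO against WT at rest and 6.56% in KO against 3′F at rest. The LPS response in KO went from 3 to 6 with limma-voom. Leaving out 1 library gave 3 to 4 called members for LPS in WT, 3 in KO, 4 in 3′F, 0 to 3 and 0 to 1 for KO against WT at rest and with LPS, 1 to 4 and 0 to 1 for KO against 3′F, and 0 for 3′F against WT and both interactions. Counts of all called genes moved beyond 1.5 times in the same comparisons with limma-voom (6073 from 3059 in KO after LPS, 2259 from 1067 and 1777 from 544 in KO against WT, 2916 from 1464 and 1842 from 441 in KO against 3′F), and with the groups alone (396 and 1031 in KO against WT, 16 and 1661 in KO against 3′F). DESeq2 called 983 genes in KO against WT with LPS. Leaving out 1 library of the compared groups moved the counts of all called genes as well as those of the members. In KO against WT every such fit called fewer genes than the 1067 at rest and 544 with LPS. The same held in KO against 3′F with LPS (441), whereas at rest the counts lay below and above 1464. The cause of these shifts was not tested. Tirap's call in 3′F after LPS was lost with the groups alone (adjusted p = 0.0716), and Ly96's in WT with upper-quartile scaling (0.0589) or no filter (0.0851). Replicate numbers were not taken to pair the samples, because the labels do not say so and not every r exceeded 0.1, although all were positive: resting and LPS libraries of the same number deviated together with r of 0.05, 0.28 and 0.29 in WT, 0.32, 0.03 and 0.04 in KO and 0.05, 0.29 and 0.11 in 3′F, with the own number best for 3, 2 and 3 of 3. The replicate block joined libraries of the same number within a genotype for LPS responses and interactions. For genotype comparisons it joined the same number across genotypes, which are different mice. There WT and KO libraries with LPS had r of -0.03, -0.24 and -0.03, with the own number best for 0 of 3. With that block Irak3 in KO against WT with LPS had 0.67 (adjusted p = 0.0638) and Irak4 0.66 (adjusted p = 0.0366), so that Irak4 was called in place of Irak3. The replicate block changed no other call of the 10 genes. Depth limits Ticam2 most, with 9 reads in the shallowest library.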
